A study of Mus musculus with 6 samples.

Results

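The genes described here mark the B lymphocyte lineage and were measured in erythroblasts, the nucleated precursors of red cells, sorted from mouse bone marrow. They are 9 genes, Cd79a, Cd79b, Vpreb1, Vpreb3, Igll1, Ebf1, Pax5, Blnk and Ms4a1, taken from a list of symbols. Every probe set (a group of short probes read as 1 value) that the platform's annotation assigned to exactly 1 of these genes was used, which gave 16 of the 45037 probe sets tested. Ebf1 has 5 of them, Igll1, Pax5 and Ms4a1 have 2 each, and the other genes have 1. A further probe set that the annotation assigns to Vpreb1 and Vpreb2 together was left out by this rule.

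Cells carrying both Ter119, an erythroid surface marker, and CD71, the transferrin receptor, and of large size by forward scatter were sorted from 3 mice lacking the miR-144/451 locus (KO) and 3 wild-type mice (WT), none of them treated as far as the labels say. Its microRNAs accumulate as red cells mature, and the study set the transcripts of cells without them beside those of normal cells. Each sample gave 1 Affymetrix Mouse Genome 430 2.0 array, and arrays are named by the numbers in their titles, WT 497, 504 and 550 and KO 493, 548 and 551. The design text of the series gives 3 mice of each genotype, and the labels do not say what a title number stands for. Strain, age and the extent of the deletion were not used here, and whether cells other than the erythroid lineage carry the deletion in these mice is not stated in the labels.

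B lymphocytes arise in the bone marrow beside the red cells. Early in the lineage, EBF1 and PAX5 switch on B cell genes, and the heavy chain of a pre-B cell pairs with a surrogate light chain made of VPREB1 and lambda5, the product of Igll1. CD79A and CD79B carry the signal of this pre-B cell receptor and of the later B cell receptor into the cell, BLNK links the receptor to its downstream enzymes, and Ms4a1 encodes CD20, a surface protein of more mature B cells. Erythroblasts are not known for expressing this programme. In RNA of sorted cells taken in bulk, fewer cells of a type and less RNA per cell cannot be told apart.

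The promoter windows of 4 members are shown here, of Cd79a, Vpreb3 and Blnk, which were highest in the array WT 497, and of Vpreb1, which was not. Each is the 250 bases before a RefSeq start site (mouse build GRCm38.p6), written 5′ to 3′ on the gene's strand. Capitals mark 3 motifs searched on both strands: TCAAGGG, the core of the EBF1 site known in the Cd79a promoter, ATTTGCAT, the octamer bound by OCT factors, and CAGGTG, an E-box of the E2A type.
Cd79a (chr7:24897247-24897496, plus strand): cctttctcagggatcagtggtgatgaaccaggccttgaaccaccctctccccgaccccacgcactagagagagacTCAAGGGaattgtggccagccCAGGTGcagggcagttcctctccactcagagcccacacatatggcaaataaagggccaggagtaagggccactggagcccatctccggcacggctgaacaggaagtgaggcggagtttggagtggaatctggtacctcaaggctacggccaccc
Vpreb1 (chr16:16869256-16869505, minus strand): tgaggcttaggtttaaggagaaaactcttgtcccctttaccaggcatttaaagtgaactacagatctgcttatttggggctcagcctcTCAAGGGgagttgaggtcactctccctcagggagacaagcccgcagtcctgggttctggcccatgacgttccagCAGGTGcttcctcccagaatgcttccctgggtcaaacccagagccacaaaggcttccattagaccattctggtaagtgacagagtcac
Vpreb3 (chr10:75948050-75948299, plus strand): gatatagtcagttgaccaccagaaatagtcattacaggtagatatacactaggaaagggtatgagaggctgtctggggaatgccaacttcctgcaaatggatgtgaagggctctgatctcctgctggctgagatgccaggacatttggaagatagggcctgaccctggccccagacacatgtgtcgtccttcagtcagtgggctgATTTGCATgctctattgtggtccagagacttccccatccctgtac
Blnk (chr19:40994222-40994471, minus strand): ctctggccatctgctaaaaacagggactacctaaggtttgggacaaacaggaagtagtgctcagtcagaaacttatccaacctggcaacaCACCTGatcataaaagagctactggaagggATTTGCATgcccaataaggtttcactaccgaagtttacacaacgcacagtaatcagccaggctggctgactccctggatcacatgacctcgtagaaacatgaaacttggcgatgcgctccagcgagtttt

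RefSeq's table held windows for 7 of the 9 genes, 8 windows in all, with 2 for Ebf1. TCAAGGG was found in 2 of these 8, Cd79a (its first base at -175 from the start site) and Vpreb1 (-162), and in 3.07% of 32851 windows of the same length. This motif is known from the Cd79a promoter itself, so its match there was fixed in advance. The octamer was found in 2, Vpreb3 (-45) and Blnk (-130), against 1.60% of all windows. The E-box was found in 4, Cd79a, Vpreb1, Blnk and Igll1, against 17.2% of all windows. The palindromic EBF1 core CCCNNGGG was found in Igll1 alone, against 11.8%. These matches describe letters in the windows, and the motifs were chosen for what is known of B cell promoters.

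Values are log2 of the authors' RMA intensities, given in the order WT 497, WT 504 and WT 550, then KO 493, KO 548 and KO 551, and a difference is the mean log2 value in KO minus that in WT. Most of the erythroid genes measured were bright in both genotypes. Tfrc, which encodes CD71, a marker used in the sort, had means of 12.98 (WT) and 12.94 (KO). Slc4a1, an anion exchanger of the red cell membrane, had means of 13.11 and 13.04, and Alas2, an enzyme of haem synthesis, 12.74 and 12.61. The probe set read for Hba-a1, of the same list, was dim, at 2.96 and 2.18. Some neutrophil genes were as bright as the erythroid ones, such as S100a9 at 13.45 and 13.38. The median difference of 14 measured erythroid genes was -0.13, with Klf1 at -0.10, Sptb at -0.56 and Epb42 at -0.27, and their linear intensities summed to between 66405 and 69834 per WT array and between 62397 and 63861 per KO array. Array medians lay between 5.73 and 5.78 for WT and between 5.62 and 5.68 for KO. The actin 3′ signal exceeded the 5′ signal, a measure of RNA and labelling quality, by 1.65 to 1.67 log2 units on WT arrays and by 1.82 to 1.86 on KO arrays. For Gapdh the same measure did not separate the genotypes. It was 1.09, 1.03 and 1.04 on the WT arrays, 1.04 in KO 493, 1.05 in KO 548 and lowest in KO 551. With each array's median removed, the median B lineage difference given next was -0.50. The part of the actin signal in the results was not tested. WT 497 had the lowest mean correlation with the arrays of its own group, 0.986, where the other 5 arrays had 0.988 to 0.990.

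Of the 9 B lineage genes, each read by its brightest probe set, 8 had a lower mean in KO, as did 56.0% of all genes, with a median difference of -0.61 against -0.04 over 18193 genes. None was called by limma (a linear model whose variances borrow strength across all probe sets) at an adjusted p under 0.05, where 0.385% of all genes were called in either direction, while 6 had an unadjusted p under 0.05 and a lower mean, where 12.7% of all genes did. Over the 16 probe sets, 14 had a lower mean in KO (56.6% of all probe sets did), 0 were called against 0.355% of all probe sets, and 9 had an unadjusted p under 0.05, all of them lower in KO, against 12.2%. When the prior variance was allowed to follow intensity and was fitted robustly, 1 of the 16 was called, an Ebf1 probe set, against 3.54% of all probe sets, and 0 of the 9 genes by their brightest probe set, against 4.42% of all genes. In 3 of the 9 genes, Vpreb1, Igll1 and Ebf1, all KO arrays lay below all WT arrays, which held for 16.2% of all genes. Without WT 497, 7 of the 9 genes had a lower mean, 3 had an unadjusted p under 0.05 and the median was -0.43, and without WT 497 and KO 493 together these values were 7, 7 and -0.57. The count of genes at an unadjusted p under 0.05 was 1 without KO 548, 2 without KO 551, 6 without KO 493, 6 without WT 504 and 5 without WT 550. For the fits with arrays left out, the share of all genes at that p is not given. Their counts therefore have no background beside them.

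**Figure D1:**
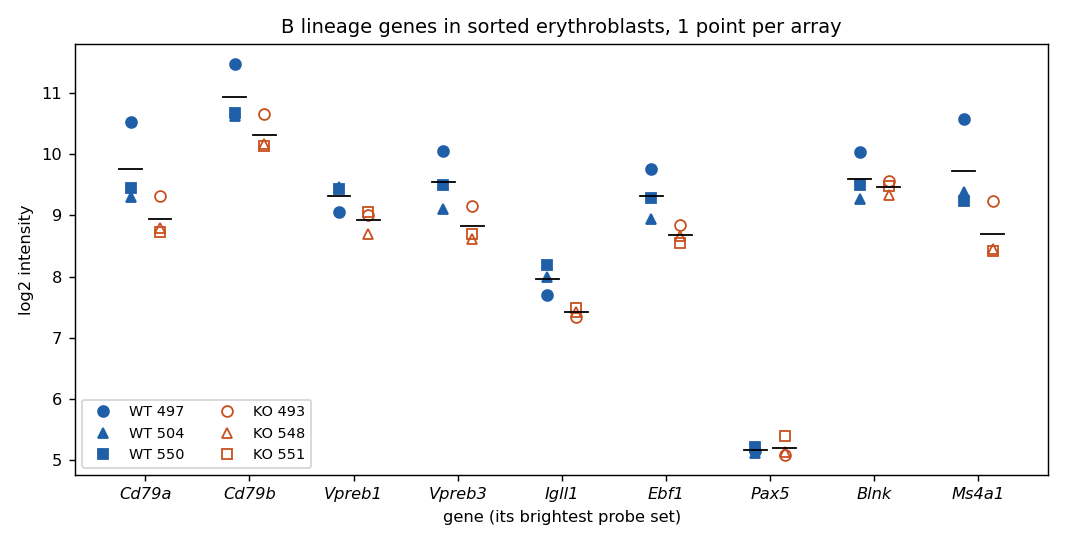
Log2 intensity (vertical axis) of the brightest probe set of each of the 9 B lineage genes in each array, with filled blue symbols for WT, open orange symbols for KO and a black line for each group mean of 3 arrays. WT 497 stands above the other arrays for 6 genes, and for Vpreb1 and Igll1 it is the lowest WT array.

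Vpreb1 and the brighter probe set of Igll1, the surrogate light chain genes, had their lowest WT value in WT 497 and no overlap between the groups. Vpreb1 was at 9.06, 9.46 and 9.43 in the WT arrays and at 9.01, 8.70 and 9.05 in the KO arrays. The groups did not overlap, by the margin between 9.06 in WT 497 and 9.05 in KO 551. The difference was -0.40 ± 0.16 (SE, n = 3 per group, limma adjusted p = 0.235), 0.76 of the WT level, and it was -0.52 without WT 497.

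Igll1, which encodes lambda5, is read by 2 probe sets that order the arrays differently. The brighter, 1420176_x_at, was at 7.70, 8.0 and 8.18 in the WT arrays and at 7.34, 7.42 and 7.49 in the KO arrays, with no overlap. It differed by -0.54 ± 0.14 (SE, n = 3 per group, limma adjusted p = 0.134), the smallest adjusted p of the 9 genes, and by -0.67 without WT 497. Its name marks probes that can also bind other transcripts. The dimmer, 1420177_at, was at 8.52, 7.53 and 7.05 in the WT arrays and at 7.45, 6.54 and 7.22 in the KO arrays, so that the groups overlapped and WT 497 was the highest array. Its difference was -0.63 ± 0.40 (SE, limma adjusted p = 0.428). Both put the mean lower in KO, and they disagree on the place of WT 497, whose value minus the mean of the other WT arrays was -0.39 in the brighter probe set and 1.23 in the dimmer.

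Vpreb3, whose product binds immunoglobulin chains inside B cells, was highest in WT 497. It was at 10.05, 9.11 and 9.49 in the WT arrays and at 9.16, 8.62 and 8.69 in the KO arrays. KO 493 lay above WT 504, so the groups overlapped, and the difference was -0.73 ± 0.26 (SE, n = 3 per group, limma adjusted p = 0.205). Without WT 497 it was -0.48.

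The signalling chains of the receptor varied together over the arrays. Cd79a was at 10.53, 9.30 and 9.44 in the WT arrays and at 9.31, 8.79 and 8.73 in the KO arrays. WT 497 stood 1.16 above the mean of the other WT arrays, KO 493 stood 0.55 above the mean of the other KO arrays, and KO 493 and WT 504 were nearly level. The difference was -0.81 ± 0.34 (SE, n = 3 per group, limma adjusted p = 0.251), a 95% interval of -1.63 to -0.0015, and -0.43 without WT 497.

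Cd79b, the partner chain, was at 11.48, 10.63 and 10.68 in the WT arrays and at 10.66, 10.16 and 10.14 in the KO arrays. The arrays stood in the same order as for Cd79a, with WT 497 highest, WT 550 next, KO 493 above WT 504, and KO 548 and 551 lowest. It differed by -0.61 ± 0.26 (SE, n = 3 per group, limma adjusted p = 0.262), and by -0.34 without WT 497. Blnk, the adaptor downstream of the receptor, was at 10.03, 9.26 and 9.50 in the WT arrays and at 9.56, 9.33 and 9.48 in the KO arrays. The KO arrays lay within the WT range, and the difference of -0.14 ± 0.20 (95% interval -0.62 to 0.34, limma adjusted p = 0.746) was 0.08 without WT 497.

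Ebf1, the transcription factor that commits cells to the lineage, has 5 probe sets, of which 4 had a lower mean in KO with all KO arrays below all WT arrays, as 15.3% of all probe sets did. The brightest, 1416301_a_at, was at 9.75, 8.94 and 9.28 in the WT arrays and at 8.84, 8.67 and 8.54 in the KO arrays, a difference of -0.64 ± 0.21 (SE, n = 3 per group, limma adjusted p = 0.182). The widest separation among the 16 probe sets, by unadjusted p (0.00303), was in 1448293_at, at 8.32, 7.63 and 7.76 in the WT arrays and at 7.04, 7.15 and 6.79 in the KO arrays. It differed by -0.91 ± 0.20 (SE, limma adjusted p = 0.105, and adjusted p = 0.0412 with the robust prior that follows intensity).

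The probe sets 1416302_at and 1439789_at of Ebf1 differed by -0.64 and -0.69. The dimmest, 1457441_at, had a higher mean in KO, with all KO arrays above all WT arrays. It was at 4.79, 5.07 and 5.07 in the WT arrays and at 5.28, 5.12 and 5.90 in the KO arrays, a difference of 0.46 ± 0.22 (SE, limma adjusted p = 0.296). Its values lay below the median of each array except in KO 551. Averaged over its 5 probe sets, Ebf1 differed by -0.48 (limma adjusted p = 0.148).

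Pax5, the factor that maintains B cell identity, had dim signals in both probe sets. The brighter, 1454401_at, was at 5.15, 5.12 and 5.21 in the WT arrays and at 5.08, 5.14 and 5.39 in the KO arrays, with overlapping groups and a difference of 0.04 ± 0.12 (95% interval -0.24 to 0.32, limma adjusted p = 0.873). The dimmer, 1421765_at, differed by -0.08 ± 0.13, and ranged from 4.21 to 4.57 over the 6 arrays, around the 25th percentile of each array (4.30 to 4.40). Detection calls were not used here, so whether Pax5 was above the array's background is not known.

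Ms4a1, which encodes CD20, varied most over the arrays among the members, with a range of 2.17 in its brighter probe set. That probe set, 1450912_at, was at 10.58, 9.38 and 9.23 in the WT arrays and at 9.23, 8.45 and 8.41 in the KO arrays, with WT 550 and KO 493 level. The difference was -1.03 ± 0.40 (SE, n = 3 per group, limma adjusted p = 0.222), 0.49 of the WT level, and -0.61 without WT 497. The other probe set, 1423226_at, was at 10.01, 8.57 and 8.54 in the WT arrays and at 8.63, 7.74 and 7.92 in the KO arrays, and differed by -0.94 ± 0.44 (limma adjusted p = 0.288). Both put WT 497 far above the rest.

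**Figure D2:**
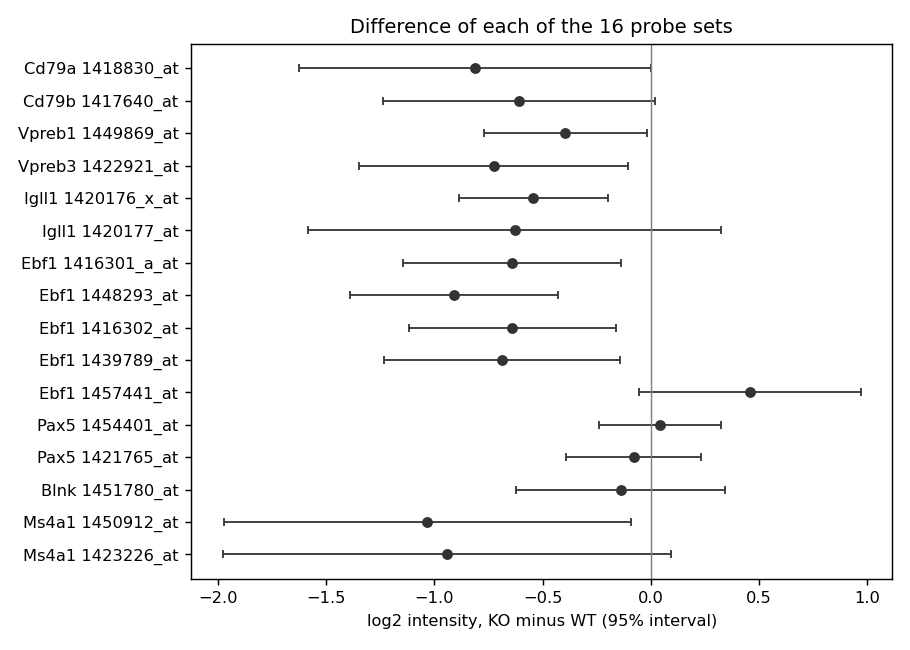
Difference in log2 intensity, KO minus WT (horizontal axis), of each of the 16 probe sets with its 95% interval from limma, 3 arrays per group. Of the 16 points 14 lie below 0, and the widest intervals are those of Ms4a1 and of the dimmer Igll1 probe set.

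Over the arrays the members showed more than 1 pattern. In Cd79a, Cd79b, Vpreb3, Ebf1, Blnk and Ms4a1 the highest array was WT 497, which stood 0.64 to 1.28 above the mean of the other WT arrays, while Vpreb1 and the brighter Igll1 probe set had WT 497 lowest of the WT arrays, with WT 497 minus that mean at -0.385 for Vpreb1 and -0.39 for Igll1. WT 497 was the highest of the 6 arrays for 6 of the 9 members and for 23.6% of all genes. The contrast between Vpreb1 and Ms4a1 in WT 497 rests on 1 array and has no test.

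**Figure D3:**
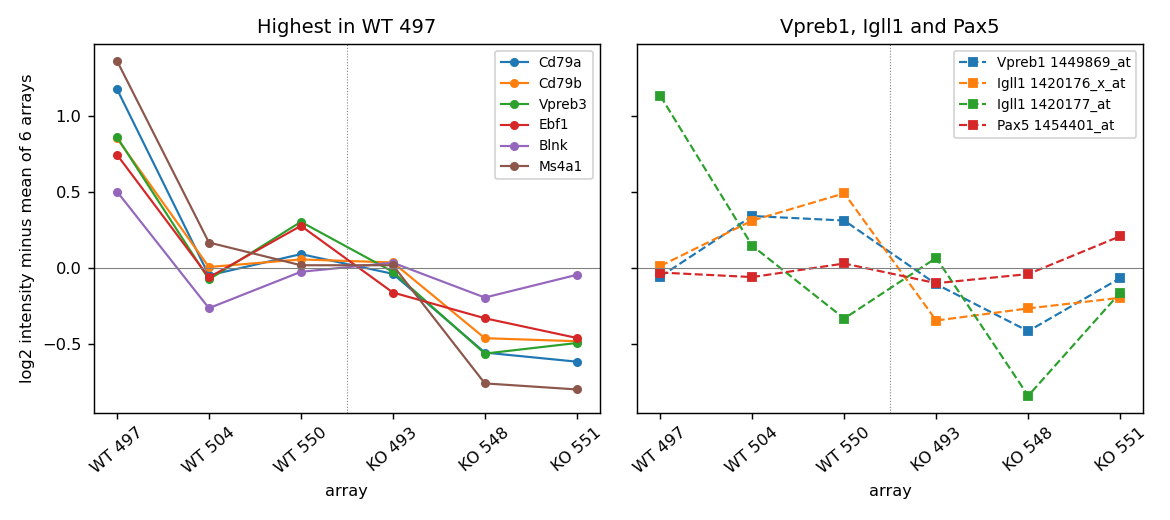
Log2 intensity minus the mean of the 6 arrays (vertical axis) for each array, with lines that only join the values of 1 probe set. The left panel holds the brightest probe sets of the 6 members that were highest in WT 497, and the right panel holds Vpreb1, both Igll1 probe sets and the brighter Pax5 probe set; the Igll1 probe sets part in WT 497.

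Other genes of the lineage, from lists chosen with earlier results of these data known, also stood apart in WT 497, and in both directions. Among 22 later B cell genes, WT 497 was the highest array for 21, with a median of 0.96 above the other WT arrays. Fcer2a, the low-affinity IgE receptor of mature B cells, was at 8.40 in WT 497 and at 6.47 and 4.34 in WT 504 and 550. Cr2, the complement receptor CD21, was at 8.15 in WT 497 and 6.15 and 5.84 in the other WT arrays. Dntt, the terminal transferase of early B cell progenitors, was lower in WT 497, at 8.42 against 9.21 and 9.33. Most genes of its list, recombination and early B cells, did not share this. In that list WT 497 was the highest array for 10 of 18 genes, with a median of 0.075 above the other WT arrays. Fcer2a, Cr2 and Dntt were chosen after their values were seen.

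In the KO to WT comparison 0 genes of these lists were called by limma. The later B cell genes had lower means in KO for 22 of 22, a median difference of -0.66 (-0.32 without WT 497) and 10 members at an unadjusted p under 0.05, all lower. Ly86, a partner of the receptor CD180, was at -1.06 ± 0.25 (SE, limma adjusted p = 0.118) and Ralgps2 at -0.997 ± 0.29 (adjusted p = 0.151). Of 19 other genes of antigen receptor signalling, 17 were lower in mean, with a median of -0.57 (-0.30 without WT 497) and unadjusted p under 0.05 for 7 lower and 1 higher. Plcg2, the phospholipase that BLNK recruits, was at -0.83 ± 0.21 (limma adjusted p = 0.123), with all KO arrays below all WT arrays, and the adaptor Dapp1 was the higher one, at 0.49 ± 0.13 (adjusted p = 0.133).

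Of 20 other regulators of the lineage, 17 were lower in mean, with a median of -0.49 (-0.30 without WT 497) and 8 at an unadjusted p under 0.05, all lower. Lef1, a transcription factor of early B and T cells, was at -0.83 ± 0.15 (limma adjusted p = 0.0751) and the repressor Bach2 at -0.60 ± 0.18 (adjusted p = 0.155). With the robust prior that follows intensity, which called 4.42% of all genes, 2 of these 20 were called, 2 of 18 genes of recombination and early B cells, and 0 of the other B lineage lists. With all arrays the recombination and early B cell list had the smallest median of the B lineage lists, -0.28 (-0.23 without WT 497). In it 15 of 18 were lower in mean and 4 had an unadjusted p under 0.05. In that list the recombinase gene Rag1 was at -0.45 ± 0.17 (limma adjusted p = 0.219) and Il7r, the receptor for the growth factor of early B cells, at -0.42 ± 0.26 (adjusted p = 0.422). Erg and Spn had its smallest p, at -0.65 ± 0.12 (adjusted p = 0.0792) and -0.47 ± 0.12 (adjusted p = 0.125), and neither is specific to B cells. Of 13 immunoglobulin and plasma cell genes 11 were lower in mean, with a median of -0.44. Without WT 497 it was -0.16, then the smallest of the B lineage lists. Ighm, the heavy chain of IgM, was at 11.61, 10.88 and 10.81 in the WT arrays and at 10.86, 10.62 and 10.50 in the KO arrays. Prdm1, the plasma cell regulator, was at -0.51 ± 0.11 (adjusted p = 0.0971), and Mzb1, a chaperone of antibody-secreting cells, at -0.59 ± 0.22 (adjusted p = 0.22). The Prdm1 values, 4.88 to 5.57, lay below the median of each array. Whether Prdm1 was above the array's background is not known, as for Pax5.

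Markers of other blood cells also had lower medians in KO, the megakaryocyte and platelet genes least. The median difference was -0.61 over 14 eosinophil, basophil and mast cell genes, -0.36 over 15 neutrophil genes, -0.31 over 21 T and NK cell genes, -0.30 over 20 monocyte and macrophage genes, -0.27 over 9 genes of plasmacytoid dendritic cells and -0.01 over 14 megakaryocyte and platelet genes, with 0 called in each by limma. With the robust prior that follows intensity, 1 monocyte and macrophage gene, 1 eosinophil, basophil and mast cell gene and 1 of the genes of other organs were called. That fit called 4.42% of all genes. KO means were lower for 12 of 14 eosinophil, basophil and mast cell, 15 of 15 neutrophil and 19 of 20 monocyte and macrophage genes. They were lower for 18 of 21 T and NK cell, 7 of 9 plasmacytoid and 7 of 14 megakaryocyte genes. The erythroid count was 13 of 14, and 56.0% of all genes were lower. In this order, the main limma fit put 9, 4, 8, 3, 1, 0 and 2 lower at unadjusted p under 0.05 (all genes 12.7%). All KO arrays lay below all WT arrays for 6, 7, 8, 5, 1, 0 and 8 (16.2%). Without WT 497 the medians were -0.22 for neutrophil, -0.17 for T and NK cell, -0.08 for plasmacytoid dendritic cell, -0.39 for monocyte and macrophage, -0.47 for eosinophil, basophil and mast cell and 0.05 for megakaryocyte and platelet genes. WT 497 was the highest array for 11 of the 15 neutrophil genes, 9 of the 14 eosinophil, basophil and mast cell genes and 13 of the 21 T and NK cell genes, where it was for 23.6% of all genes. The count was 4 of 9 for plasmacytoid dendritic cell genes. For monocyte and macrophage genes WT 497 was highest in 6 of 20 (30.0%), and for megakaryocyte and platelet genes in 4 of 14 (28.6%). Its median excess over the other WT arrays was 0.59 in the eosinophil, basophil and mast cell list and 0.65 in the 9 members. Over 35 genes of organs such as the eye, pancreas and testis the median difference with all arrays was -0.12. The members with the smallest p were Epx (-1.11) and Cpa3 (-0.74) among eosinophil, basophil and mast cell genes, Ctsg (-0.58) and Elane (-0.86) among neutrophil genes, and Nkg7 (-1.02) and Klrd1 (-0.62) among T and NK cell genes. They were Ctss (-0.56) and Csf1r (-0.63) among monocyte and macrophage genes, Irf7 (-0.36) and Cox6a2 (-0.51) among plasmacytoid dendritic cell genes, Itgb3 (-0.28) and Itga2b (0.24) among megakaryocyte genes, and Pmch (-0.41) and Gcg (-0.30) among genes of other organs. The linear intensities of the 9 B lineage genes summed to between 5533 and 9610 on WT arrays and between 4003 and 5350 on KO arrays, with WT 497 the highest of all. Neutrophil genes summed to between 55032 and 61258 on WT arrays and between 46280 and 52510 on KO arrays, and the eosinophil, basophil and mast cell genes to between 4738 and 8157 and between 3675 and 4222. RMA gives every probe set a value, so no marker reads as 0. The part of these cell types in the B lineage values was not tested.

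**Figure D4:**
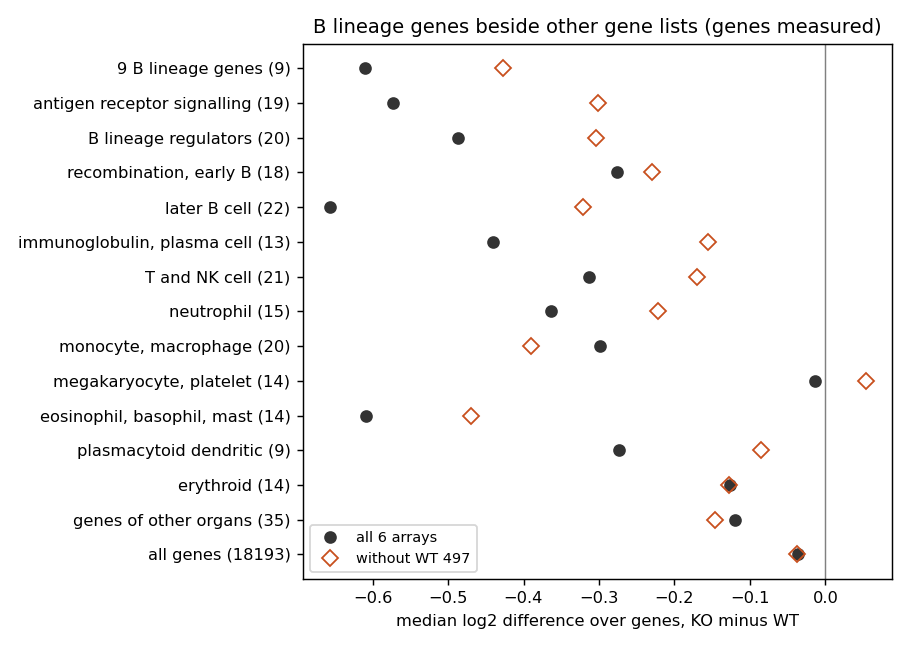
Median over genes of the log2 difference, KO minus WT (horizontal axis), for the 9 B lineage genes, for lists of related genes and of other cell types, and for all genes, with the number of genes measured in brackets. Filled circles use all 6 arrays and open diamonds leave out WT 497, without which the B lineage median was -0.43 and that of all genes -0.04.

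WT 497 and 504 and KO 493 carry low numbers and the other arrays high ones, which the labels do not call a batch. Within each, all members but Pax5, read by their brightest probe sets, had lower means in KO. Among the low numbers Cd79a differed by -0.61, Ms4a1 by -0.75, Ebf1 by -0.51 and Vpreb1 by -0.25, and among the high numbers by -0.68, -0.80, -0.68 and -0.56. Cd79b differed by -0.395 and -0.53, Vpreb3 by -0.42 and -0.835 and Igll1 by -0.51 and -0.725. Blnk differed by only -0.085 and -0.095, and Pax5 by -0.06 and 0.06. The differences of Cd79a, Cd79b, Vpreb3 and Blnk among the low numbers rest on WT 497, as KO 493 was not below WT 504. WT 504 and KO 493 were at 9.30 and 9.31 for Cd79a and at 10.63 and 10.66 for Cd79b. They were at 9.11 and 9.16 for Vpreb3 and at 9.26 and 9.56 for Blnk. Those of Ms4a1 (9.38 and 9.23) and Ebf1 (8.94 and 8.84) rest largely on WT 497. Those of Vpreb1 and Igll1 do not, as WT 497 was their lowest WT array. The low and the high numbers are 3 arrays each, so they have no test of their own.

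Ebf1 and Cd79b lie on chromosome 11, which also carries the deleted locus, at 473 and 498 measured genes from it on opposite sides. The other 7 members lie on chromosomes 4, 7, 10, 16 and 19, and Vpreb1 and Igll1 share chromosome 16. The differences of Ebf1 and Cd79b, -0.64 and -0.61, lay within the range of the members on other chromosomes.

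The genes whose pattern over the 6 arrays was nearest to the mean of the 9 centred members, among 10745 other genes at or above the median level, were Fyn, Il2ra, Rasgrp2, Fnbp1 and Csf1r. Nearness was the root mean square distance in log2 units, 0.05 to 0.06 for these 5. The member mean was at 0.60, 0.03 and 0.17 in the WT arrays and at -0.08, -0.40 and -0.33 in the KO arrays. Fyn, a kinase of the Src family, was at 8.22, 7.68 and 7.71 in the WT arrays and at 7.54, 7.27 and 7.23 in the KO arrays. Csf1r, the macrophage growth factor receptor, is no B lineage marker, and it differed by -0.63 ± 0.18 (limma adjusted p = 0.149). Among so many genes and 6 arrays, near matches of this kind are a description only.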

How the data were processed

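Biotin-labelled total RNA of 6 samples was measured on Affymetrix arrays. The authors deposited linear intensity values per probe set made with RMA, per the submitters' processing notes, which give no software version; the background step and detection calls are not given in the sources used here. RMA brings arrays toward a shared distribution. Log2 of these values was taken with no pseudocount or further normalization. The 64 control probe sets were left out of the 45101, and 45037 were tested per probe set by limma (version 3.58.1, run under R 4.3.3) with a group term alone and moderated variances (Benjamini-Hochberg over all probe sets, threshold 0.05); the fit was tested on simulated data. Gene names came from GEO's platform annotation, and chromosomes and promoters from RefSeq (GRCm38.p6). A gene was read by its probe set of highest mean. No probe set besides the controls was filtered from the main fit, and the search for nearest patterns kept only genes at or above the median level. The number of arrays limits the precision.

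The members, lists and naming rule (the 2 smallest p of each list where none was called, a fixed set of checks, and the 5 nearest patterns) were chosen with earlier results of these data known. Some of the fixed checks are not reported here. Alternatives were renewed quantile and cyclic loess normalization, array centring, a filter on dim probe sets, a trend prior, averaged probe sets, probe sets without _x_at, _s_at and _a_at, a block for title numbers, and each array left out.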

Additional observations from a re-analysis of the deposited data

How the results depend on the processing

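Under the 14 planned fits per probe set and the added one without WT 497 and KO 493 together, which was chosen after the data were seen, 0 of the 16 B lineage probe sets were called by limma, except with the intensity trend and robust prior, where 1 was, the Ebf1 probe set 1448293_at. The count of called B lineage genes was 0 throughout, and also 0 with a gene's probe sets averaged, with 1 (without KO 548) to 7 of the genes at an unadjusted p under 0.05. The share of all genes at that unadjusted p is given for the main fit alone. The median B lineage difference ran from -0.76 without WT 504 to -0.43 without WT 497, and was -0.50 with array medians removed, which moved the median of all probe sets from -0.04 to 0.07. The filter on dim probe sets kept 13 of the 16, and 8 of the 9 genes, without Pax5. Over all probe sets, 160 were called, and 411 with array medians removed, 1009 with dim probe sets left out, 1593 with the trend, 17 with the block for title numbers, 11 without WT 497 and KO 493 together, and 8 to 23 without 1 array, 8 being without KO 548. The sign of Pax5 was reversed at -0.0184 with probe sets averaged, -0.0001 with the block and -0.0502 without KO 551. That of Blnk was reversed at 0.0767 without WT 497 and 0.025 without WT 497 and KO 493 together. The cause was not tested. Over the fits without 1 array, Pax5 reached 0.105 (without KO 493) and Blnk -0.308 (without WT 504), both with the sign of the main fit. No paired analysis was possible because the groups share no replicate number. Signals of Pax5 near the dim end limit what can be read from it.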
